A study of Rattus norvegicus with 16 samples.

Results

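The sites described here are CpG cytosines whose percentage of reads called methylated differed strongly between 8 libraries of neonatal rat amygdala. They were selected on the measured values. A cytosine on chromosomes 1 to 20 was kept if it had 20 or more reads in all 8 libraries of postnatal day 7 (P7), and if the highest and the lowest percentage of methylated reads were 50 points or more apart. Diet was not used in the choice. Of 292404 cytosines with that coverage, 992 (0.339%) met the rule, and they are called variable sites below. In all, 5025250 cytosines on these chromosomes were listed in at least 1 of 16 libraries. The 992 sites lay at 938 CpGs, of which 54 contributed the cytosines of both strands. The plus strand held 536 variable sites and the minus strand 456.

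DNA came from the amygdala, a forebrain region, of female Long-Evans rats, and was read by reduced representation bisulfite sequencing. The 4 control and 4 high-fat libraries of P7 came from offspring of dams on a control diet, or of dams given a high-fat diet from 4 weeks before pregnancy until the end of lactation. The offspring were not themselves fed the high-fat diet. At day 90 (P90), after weaning to control diet, 4 control and 4 high-fat libraries were made. The labels give no litters, so every spread and p-value refers to these libraries, whose differences may be partly technical.

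DNA methylation in mammals is placed mostly on the cytosine of a CpG, a sequence that reads the same on both strands, so that each CpG has a cytosine on either strand. Maintenance methylation copies the mark to the new strand after replication, and neighbouring CpGs tend to share their state. Bisulfite turns unmethylated cytosines into bases read as thymine, so a cytosine changed to thymine in the genome is read as unmethylated too. Long-Evans rats are an outbred stock. An animal with such a change on both chromosome copies reads near the bottom of the scale, and an animal with it on a single copy near the middle. Neither genotypes nor the Rnor_6.0 sequence was used here, so the part of sequence differences in any value below was not tested.

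The P7 libraries held 22087054 to 63677193 reads at listed cytosines, with 415339 to 926355 cytosines at 20 reads or more. Every listed cytosine had at least 1 methylated read, so that a fully unmethylated cytosine cannot be told from an unread one. Of the P90 libraries, control replicates 1 and 2 have titles in the style of the P7 libraries, and only these 2 are used for levels. In the other 6, 53 to 243 variable sites had 20 reads, and 60.9% to 79.7% of their values were 95% or more. A value of 50% rests on an interval of 29.9% to 70.1% at 20 reads and of 35.2% to 64.8% at 40 reads (95% Wilson intervals, which cover counting error only).

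The values that chose the sites are given as a description. The median range of the variable sites was 56.6 points, against 15 points for all 292404 sites, of which 99% had a range up to 42.0 points. The largest range was 99.02 points. Ranges of 50 to 60 points made up 638 of the sites, ranges of 60 to 80 points made up 246, and 108 sites had a range of 80 or more. There were 105 sites with ranges of 50 to 51 points and 103 sites just under the threshold with ranges of 49 to 50. Just inside it, the site at chromosome 1, position 145736137 (plus strand) ran from 50% to 100%, and the site at position 274030361 of that chromosome (minus strand) from 23.9% to 73.9%. Just outside it, chromosome 12, position 40095547 (minus strand) had a range of 49.96 points and chromosome 1, position 22944655 (minus strand) of 49.93 points. The threshold therefore cuts through a continuum.

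Variable sites were taken mostly from sites of intermediate level. Their mean over the 8 libraries had a median of 59.2%, against 84.7% for all sites. They were 1.62% of sites with a mean of 40 to 60% and 0.947% of those at 60 to 80%. At means of 80 to 100% they were 0.0487%, and at means under 20% only 2 of 32301 sites were variable. Shallow sites entered more often. Variable sites were 0.410% of sites whose lowest library had 20 to 30 reads, and 0.215% of those with 30 to 50. Sites with a range of 80 or more numbered 0.407 and 0.324 per 1000 sites in these coverage classes. By chromosome the share ran from 0.218% on chromosome 10 to 0.446% on chromosome 11.

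A range of 80 or more requires a library at 20% or less and a library at 80% or more, so for these sites only the values in between are free. The bands were set at 20% or less, 30 to 70%, and 80% or more. Over the 108 sites with a range of 80 or more, 17.1% of values lay in the low band, 39.2% in the middle band, 38.3% in the high band and 5.32% between bands. For 77 of these sites (71.3%) all 8 libraries fell inside a band. The medians of their low, middle and high values were 3.33%, 48.6% and 94.4%. The low and the high band were occupied by the choice of the sites. The middle band was occupied too at 73 of the 77, and not at the other 4. A single library was low at 57 of them. The most frequent arrangements were 1 low, 5 middle and 2 high libraries (17 sites), 1 low, 2 middle and 5 high (13 sites), and 1 low, 4 middle and 3 high (10 sites).

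Among ranges of 50 to 80 points, 36.1% of sites had all 8 values in bands, and their values formed a broad mass around the middle of the scale and a rise towards 100%. Of the 291412 other sites 56.5% had all 8 values in bands, so the share in bands alone does not set the variable sites apart. By range class the share was 36.2% at 50 to 60 points, 42.3% at 60 to 70, 10% at 70 to 80, 51.2% at 80 to 90 and 84.6% at 90 to 100. The band edges and the range limit each other, since middle and high values alone cannot lie more than 70 points apart. Of the 396 variable sites with all values in bands, 266 had middle and high values only, 39 low and middle only, 87 all 3 levels and 4 low and high only.

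**Figure D1:**
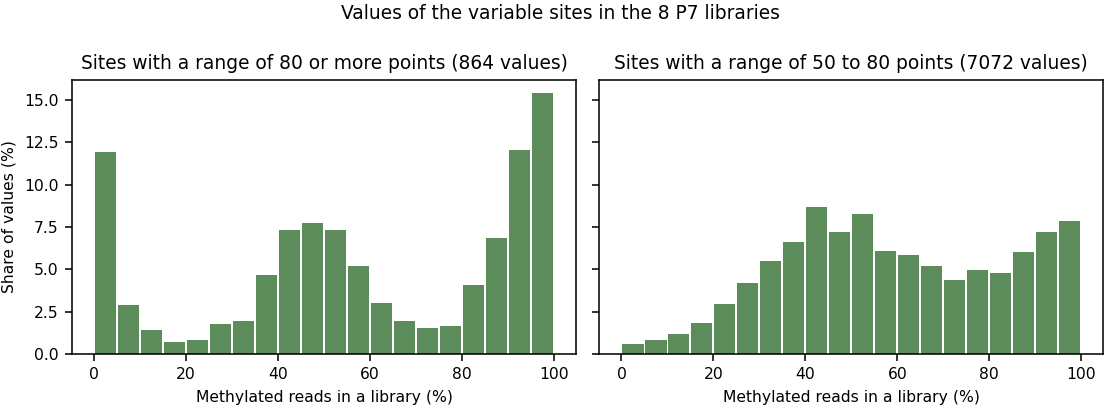
Share of values (%) by the percentage of methylated reads in bins of 5 points, for the 108 sites with a range of 80 points or more (864 values) and the 884 sites with smaller ranges (7072 values), over 8 P7 libraries. In the left panel 11.9% of values lie under 5%, 15.4% at 95% or more, and a further peak stands around 50%; in the right panel only 0.566% lie under 5%.

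The 5 CpGs with the largest mean range over both strands were taken from CpGs variable on both. A large range on either strand was thus required by their choice. On chromosome 17, the plus-strand cytosine at position 8693834 read 100%, 95.8%, 97.6% and 54.3% in control replicates 1 to 4, and 96.7%, 93.5%, 2.33% and 62.5% in high-fat replicates 1 to 4. Its minus-strand partner at position 8693835 read 95.2%, 100%, 88.5% and 67.6% in the controls and 95.2%, 87.5%, 4.76% and 42.9% in the high-fat libraries. High-fat replicate 3 was thus near the bottom on both strands, control replicate 4 and high-fat replicate 4 were in the middle, and the other 5 were near the top.

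On chromosome 6, position 132198303 (plus) read 95.3%, 54.8%, 97.9% and 44.7% in the controls and 54.2%, 1.52%, 58.3% and 56.1% in the high-fat libraries. Position 132198304 (minus) read 98.2%, 37.1%, 98.4% and 46.2%, then 56.0%, 2.5%, 47.8% and 41.3%. Here 2 control libraries were high, high-fat replicate 2 was low and 5 libraries of both diets were in between.

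On chromosome 1, positions 192463676 and 192463677, control replicate 3 read 7.14% (plus) and 3.33% (minus) and high-fat replicate 1 read 46.6% and 41.9%. The other 6 libraries read 84.1% to 97.1% over both strands. On chromosome 19, positions 30995386 and 30995387, control replicate 3 was low at 2.33% and 7.89%, control replicate 2 was high at 95.5% and 92.0%, and the remaining 6 libraries read 41.9% to 72.7%. On chromosome 3, positions 167924324 and 167924325, high-fat replicate 3 read 2.08% and 6.45%. Control replicate 3 and high-fat replicate 1 read 90.1% to 93.0% there, and the other 5 read 28.0% to 56.5%. The low library was thus a control at 2 of the 5 CpGs and a high-fat library at 3.

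Neighbouring sites within 100 bp of these CpGs ranged over at most 7.46 points on chromosome 6, 10 on chromosome 1, 18.1 on chromosome 19, 23.1 on chromosome 17 and 33.2 on chromosome 3. On the plus strand, P90 control replicates 1 and 2 read 52.2% and 98.4% at the CpG of chromosome 6. They read 93.8% and 98% at that of chromosome 17, 98.8% and 100% at that of chromosome 1, and 97.5% and 96.2% at that of chromosome 19. The CpG of chromosome 3 was listed on this strand only in replicate 2, at 29.0%. The P90 libraries thus differed widely at 1 of the 4 CpGs read in both.

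**Figure D2:**
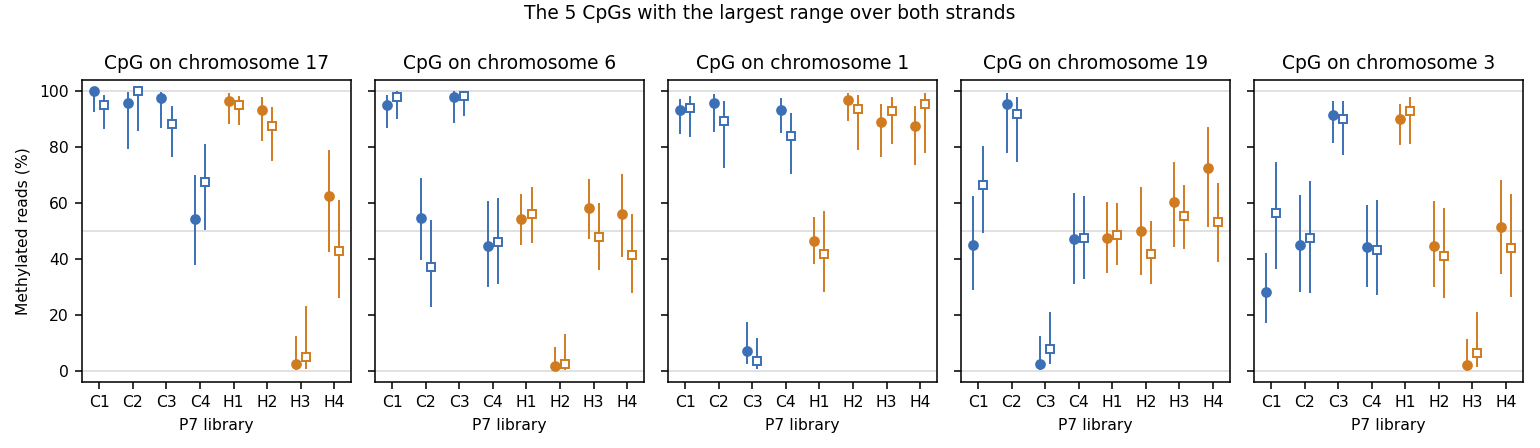
Percentage of methylated reads at 5 CpGs in each P7 library, C1 to C4 being control and H1 to H4 high-fat replicates; filled circles are the plus-strand cytosine, open squares the minus-strand one, and lines 95% Wilson intervals of the reads. The lowest library of each CpG is the same on both strands, and on chromosome 17 only H3 is near 0, at 2.33% and 4.76%. Middle values can differ between strands, as in C1 on chromosome 3 at 28% (plus) and 56.5% (minus).

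At 14 variable sites each band held at least 2 libraries, so that no single library made the pattern. The 3 best covered of them at different CpGs had no partner with enough reads. Chromosome 6, position 142155802 (minus) read 7.02%, 40.6%, 10.5% and 95.1% in the controls and 97.6%, 52.6%, 4.65% and 2.27% in the high-fat libraries, at 32 to 164 reads. Chromosome 1, position 205913097 (plus) read 42.3%, 6.45%, 49.02% and 100%, then 46.3%, 81.1%, 44.0% and 2.70%. Chromosome 7, position 108378403 (plus) read 92.3%, 67.6%, 98.4% and 97.4%, then 0.658%, 1.89%, 53.6% and 93.1%. At the first 2 of these, low and high libraries occurred in both diets, while at the last both low libraries were high-fat. Neighbours stayed within 6.90, 20 and 20.97 points at these 3 sites.

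The partner cytosine on the opposite strand is read from other reads and was not used by the rule. It was listed in at least 1 P7 library for 506 of the 992 sites and had 20 reads in all 8 for 190. Those 190 sites lie at 136 CpGs, since both strands are variable at 54 CpGs and a single strand at 82. Both strands thus passed the threshold at 39.7% of the 136 CpGs (95% Wilson interval 31.9% to 48.1%). The less variable strand of these CpGs had a median range of 45.5 points, against 12.2 points over all 27746 CpGs with both strands covered, and the correlation between the strands over 8 libraries had a median of 0.806. At 6 CpGs a strand had a range of 80 or more. At 5 of them the other strand also reached 50 points, and the median correlation was 0.944.

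Where a site read low, its partner was often missing from the list. This was counted per site and library, for sites whose partner had 20 reads in at least 4 P7 libraries. Where the site read 5% or less, the partner was unlisted in 32 of 48 such cases (66.7%). The share was 14.7% where the site read 5 to 20%, 0.896% at 30 to 70% and 0.530% at 80% or more. Since cytosines without a methylated read are not listed, the rule also passed over sites that were fully unmethylated in a library. With 20 reads in 7 libraries and no entry in the eighth there were 15170 cytosines, of which 238 had a range of 50 or more over the 7. For 3695 the partner had 20 reads in the library without the site, and it read a median of 5.13% there. At 771 the lowest of the 7 values was 20% or more, and at 344 it was 70% or more. The count of 992 is therefore a count among sites with a methylated read in every library. Of the 7936 values of these sites, 118 rested on 1 methylated read, such as the 2.33% of 43 reads at chromosome 17, position 8693834. Without that read the site would not have been listed in the library, and would not have met the rule.

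At 23 of the 136 CpGs the range of the other strand was under 20 points. Their variable strand ranged over 50.5 to 63.5 points, many just above the threshold, apart from 88.3 points at a site on chromosome 7. The 3 sites described next are those of the largest range. On chromosome 7, position 136893818 (minus) read 12.0%, 35.5%, 7.32% and 38.2% in the controls and 91.2%, 2.86%, 15.4% and 2.94% in the high-fat libraries, while its partner at position 136893817 stayed between 3.12% and 14.9%. On chromosome 1, position 33913279 (plus) read 59.5%, 43.2%, 57.4% and 48.9%, then 100%, 56.5%, 66.2% and 36.5%, and its partner at position 33913280 stayed between 9.52% and 28.2%. On chromosome 12, position 9086601 (minus) read 43.5%, 91.3%, 87.8% and 100%, then 87.9%, 37.2%, 96.0% and 91.7%. Its partner at position 9086600 stayed between 85.1% and 95.7%. In the first 2 cases a single library, high-fat replicate 1, stood above the rest. In the last, control replicate 1 and high-fat replicate 2 fell to the middle. At these CpGs the strands differed within the same library.

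Neighbours were other CpGs within 100 bp with 20 reads in all 8 libraries. For each variable site, the slope of a neighbour's percentage on the site's own was taken over the 8 libraries, and the median over its neighbours used. A slope of 1 means that the neighbour moved as far as the site, and 0 that it did not move with it. Of 906 sites with a neighbour, 489 (54.0%) had a median slope under 0.1, 221 between 0.1 and 0.5, and 196 (21.6%) 0.5 or more. The remaining 86 had no neighbour. Slopes were not computed for other sites, so these shares have no background beside them. Counting error in a site's own values pulls its slopes towards 0 and was not corrected for. The median slope was 0.149 at ranges of 50 to 60 points, and 0.010 at 90 to 100. Of 100 sites with a range of 80 or more and a neighbour, 89 had a slope under 0.1 and 2 a slope of 0.5 or more. Neighbours on the same strand may be read from the same molecules. Over the opposite strand alone the median slope was 0.063 at 50 to 60 points and -0.002 at 90 to 100.

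Sites whose neighbours moved along differed in their values from those whose neighbours did not. In the class with a slope of 0.5 or more, the mean level had a median of 48.7%, and 16.3% of sites had all 8 values in bands. In the class with a slope under 0.1 these were 65.8% and 57.5%. A range of 80 or more was found at 2 of 196 sites in the first class and at 89 of 489 in the second. The classes were not matched for range, and the share in bands differed by range. Their contrasts therefore cannot be tied to the neighbours alone. Counted by site, the median correlation with the strand partner was 0.777 in the first class (43 sites) and 0.938 in the second (105 sites). In the class of high slopes, neighbours on the opposite strand had a median slope of 0.672 at 86 sites, close to the 0.772 on the same strand. This class holds all 22 sites of a single stretch on chromosome 3, described below, which share most of their reads within a strand. Its medians are thus not taken over independent sites. The variable sites thus included single CpGs that varied without their neighbours, and stretches in which neighbouring CpGs varied together.

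**Figure D3:**
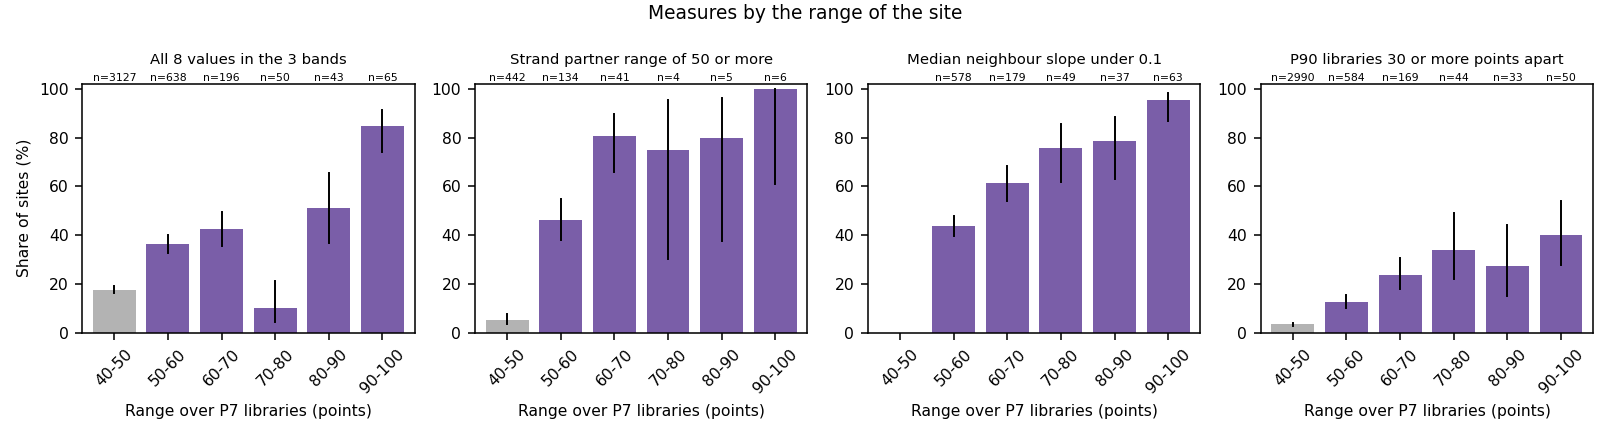
Share of sites (%) by the range over the P7 libraries in points, with 95% Wilson intervals and the number of sites above each bar: all 8 values in the 3 bands, a strand partner with a range of 50 or more (by site, so a CpG variable on both strands counts from either), a median neighbour slope under 0.1, and the 2 P90 control libraries 30 or more points apart. Grey bars are sites under the threshold (the slope was not computed for them); the share with a slope under 0.1 goes from 43.8% at 50 to 60 points to 95.2% at 90 to 100.

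Most variable sites had no other variable CpG within 100 bp. Joined over steps of at most 100 bp they formed 848 groups, of which 790 held 1 CpG, 43 held 2 and 15 held 3 or more. Groups of 2 or more CpGs held 165 sites, fewer than the 196 with a neighbour slope of 0.5 or more. Neighbours could thus move along without passing the threshold. The largest stretch, on chromosome 3, positions 154044281 to 154044376, held 14 variable CpGs and 22 sites in 96 bp, and no site with enough coverage in it was stable. Its 11 plus-strand sites had a mean of 88.7% in control replicate 3, against 27.5% to 50.0% in the other 7 libraries. The 11 minus-strand sites, read from other reads, had a mean of 79.8% in that library and 21.7% to 50.3% in the others. Control replicate 3 was the highest at every site, and high-fat replicate 3 had the lowest mean on both strands. The read counts of a strand differed by at most 4 between its sites within a library, so the sites of a strand share most of their reads and do not count as separate measurements. In the P90 controls 1 and 2, means were 39.0% and 51.4% on the plus strand and 51.6% and 44.0% on the minus strand.

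**Figure D4:**
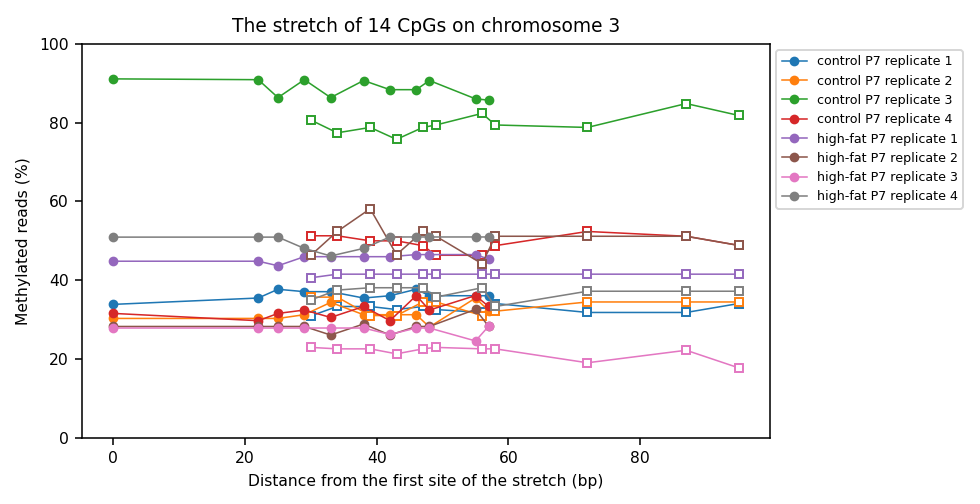
Percentage of methylated reads at the 22 variable sites of the stretch on chromosome 3 against the distance from its first site in bp, 1 colour per P7 library, with filled circles for the plus and open squares for the minus strand. Control replicate 3 lies between 75.8% and 91.1% throughout, above the other 7 libraries at 17.7% to 58.1%.

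The next stretch, on chromosome 9, positions 116060982 to 116061087, held 6 variable CpGs with 7 variable sites among 8 covered. The mean over the 7 was 45.2%, 42.5%, 80.3% and 46.1% in control replicates 1 to 4 and 75.5%, 36.1%, 25.4% and 76.5% in high-fat replicates 1 to 4. Control replicate 3 and high-fat replicates 1 and 4 were high, and high-fat replicate 3 was low. On the minus strand the order was looser, with 66.5% in control replicate 3 and 16.6% in high-fat replicate 3. The P90 controls read 56.6% and 80.8% on the plus strand and 46.9% and 74.4% on the minus strand, a gap in the same direction on both.

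The 2 P90 control libraries come from other animals and were not used in the choice, so they allow a look at whether the same sites differ between animals again. Of 880 variable sites with 20 reads in both, 157 (17.8%, 95% Wilson interval 15.5% to 20.5%) differed by 30 points or more. Among other sites the share was 0.368%. Since variable sites have intermediate levels, they were also set beside other sites in the same broad class of P7 mean. At means of 30 to 70% the share was 14.9% of 643 variable sites and 1.03% of 52198 others, and the median gap was 10.1 and 7.25 points. At means of 70 to 100% the shares were 27.9% and 0.137%, but levels are not closely matched in that class. Means of 80 to 100% were found at 81 of the 992 variable sites and at 166393 of all 292404 sites. The share rose from 12.5% at ranges of 50 to 60 points to 40% at 90 to 100. It was 27.1% of sites whose neighbours did not move along and 8.60% of sites whose neighbours did. These classes were not matched for range or level. Ranges of 80 or more were found at 89 of 489 sites in the former and at 2 of 196 in the latter. The contrast therefore cannot be tied to the neighbours alone. With 1 pair of libraries no spread between pairs can be given, and sites that share reads are not independent.

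Diet was then compared over the 8 libraries. Of the variable sites, 442 had a higher mean in the high-fat group and 550 a lower one, with a median difference (high-fat minus control) of -2.99 points. Over all sites the median was -0.304 points, and 46.6% of sites were higher in the high-fat group, against 44.6% of the variable sites. Library means over the 992 sites were 59.6% ± 3.11 (SD, n = 4) in controls and 58.3% ± 3.04 (SD, n = 4) in the high-fat group, so that the groups differed by less than their spread. The lowest were control replicate 2 at 55.0% and high-fat replicate 3 at 54.1%, and the other 6 lay between 59.0% and 61.5%. The same 2 libraries were lowest over all 292404 sites, at 69.6% and 68.6%. Control replicate 2 also had the fewest reads, with a median of 26 at the variable sites. These 2 libraries supplied the lowest value at 200 and 185 sites, and each of the others at 88 to 123.

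The extremes fell in both diets. The highest and the lowest library were both controls at 212 sites and both high-fat at 163. At 343 sites the highest was a control and the lowest a high-fat library, and at 274 the reverse. In this order the shares were 21.4%, 16.4%, 34.6% and 27.6% of the variable sites, against 25.9%, 17.2%, 33.3% and 23.5% of all sites. The range within the 4 controls alone reached 50 points at 419 sites, within the 4 high-fat libraries at 385, and in both at 130. At 318 sites neither group alone spanned 50 points. For ranges of 80 or more, 54 sites were higher and 54 lower in the high-fat group, with a median difference of -0.218 points. Among the 196 sites with moving neighbours, 73 were higher and 123 lower, with a median of -4.97 points. All 22 sites of the stretch on chromosome 3, where control replicate 3 alone was high, are among the 123. Elsewhere 73 were higher and 101 lower, with a median of -3.23 points.

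Complete separation of the diets was rare. All 4 high-fat libraries lay above all 4 controls at 19 variable sites (1.92%), against 1.17% of all sites, and below them at 20 (2.02%), against 1.58% of all sites. Together these were 3.93% of the variable sites and 2.74% of all sites. For a range of 40 points the share of variable sites was 2.74%, and with a minimum of 10 reads it was 2.59% for variable and for all sites, so it was not above the background there. In a logistic model with each site's own dispersion, 0 of the 992 sites and 0% of all sites passed an adjusted p of 0.05. At an unadjusted p under 0.05 it gave 64 variable sites (6.45%), against 1.99% of all sites. The model has 6 residual degrees of freedom and would need a p of 1.71e-07 for a first call among 292404 sites. Limma on log2 ratios of the counts called 4 variable sites, against 0.00171% of all sites (5 sites). With the dispersion moderated over sites by limma, 81 were called, 42 higher and 39 lower, against 0.0592% of all sites (173 sites). The variable sites were chosen for their spread between libraries, so a dispersion shared over sites can understate their error. The 81 calls are therefore not taken as diet differences. A large difference between diets is itself a large range, so calls by these tests tend to be variable sites by construction, and nothing is read from that share.

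The 4 sites called by limma had no overlap between diets. At chromosome 5, position 58283320 (minus), named after its values were seen, controls read 98.0%, 100%, 43.9% and 97.2% and high-fat libraries 4.30%, 1.92%, 2.13% and 3.45%. Control replicate 3 stood in the middle, and the means were 84.8% ± 27.3 and 2.95% ± 1.13 (SD, n = 4; adjusted p = 0.00512 by limma, 1 with its own dispersion). At chromosome 2, position 134765979 (minus), controls read 93.0%, 96.0%, 97.5% and 95.2% and high-fat libraries 51.4%, 54.5%, 58.1% and 45%, a difference of -43.2 points (adjusted p = 0.00512 by limma). At chromosome 11, position 22145399 (minus), controls read 13.9%, 6.90%, 10% and 17.4% and high-fat libraries 66.0%, 57.5%, 61.0% and 62.5%, a difference of 49.7 points (adjusted p = 0.0193 by limma). At chromosome 13, position 101252036 (plus), controls read 33.9%, 32.0%, 40.6% and 42.3% and high-fat libraries 90.8%, 76.1%, 83.3% and 89.8%, a difference of 47.8 points (adjusted p = 0.0470 by limma). Each group thus kept to a single level at these 4 sites, apart from control replicate 3 at the first. Limma calls sites whose diet difference is large against the spread within diets, so this follows largely from their choice.

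The P90 controls did not always read like the P7 controls at these sites. The P90 control libraries read 47.4% and 67.6% at the site of chromosome 5, and 97.1% and 50% at that of chromosome 2. They read 60% and 39.5% at the site of chromosome 11, and 91.7% and 91.9% at that of chromosome 13. At the last 2 the P90 controls lay nearer to the P7 high-fat libraries than to the P7 controls. Age and animal cannot be told apart in that difference. None of the 4 had a partner with 20 reads in all 8 libraries, and the median neighbour slopes were 0.012 to 0.044. A further site ranked by its diet p, chromosome 5, position 244477 (plus), read 48.9%, 66.7%, 38.5% and 51.5% in controls and 20%, 20%, 20% and 13.5% in high-fat libraries. The test with moderated dispersion called it (adjusted p = 0.00214), and limma on log2 ratios did not (adjusted p = 0.998).

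**Figure D5:**
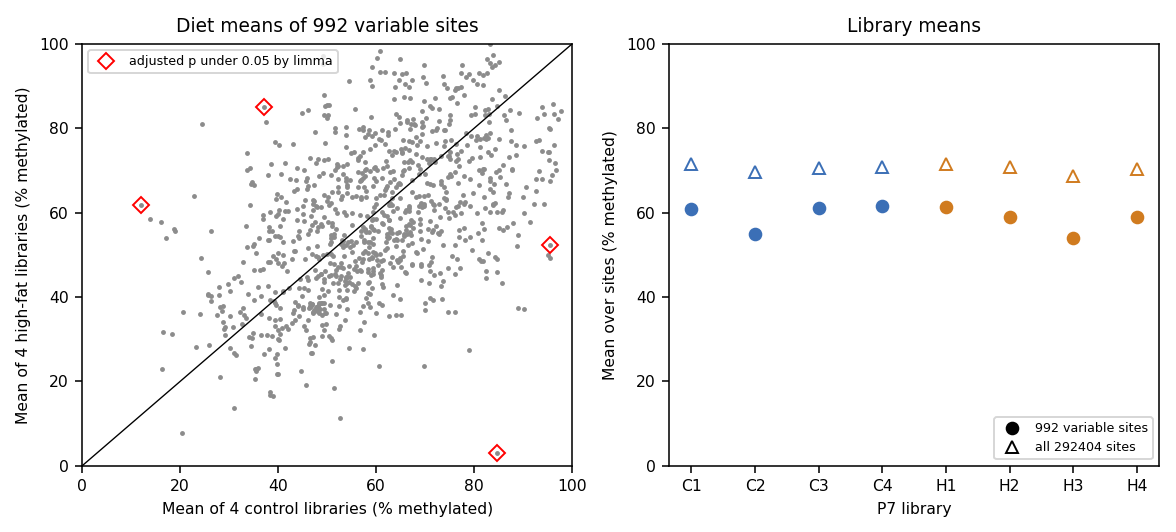
Left, mean percentage of methylated reads of the 992 variable sites in 4 control and 4 high-fat P7 libraries, with the line of equal means and diamonds at the 4 sites called by limma. Right, mean of each library over the 992 variable sites (filled circles) and over all 292404 sites (open triangles), in which C2 and H3 are lowest on both measures.

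Libraries resembled each other little at these sites, as their choice requires, but not all pairs equally. Across the 992 sites, which share libraries and in part reads, Pearson's r between library pairs averaged 0.284 within diets (12 pairs) and 0.232 between diets (16 pairs). High-fat replicates 3 and 4 were most alike, at 0.549, followed by control replicates 1 and 2 at 0.355 and control replicates 3 and 4 at 0.347. The lowest value within a diet was 0.151, for high-fat replicates 1 and 2. At the 108 sites with a range of 80 or more, high-fat replicates 3 and 4 were within 20 points of each other at 58 sites, as were high-fat replicates 2 and 4, and control replicates 2 and 3 at 26. At the other sites all pairs had r of 0.950 to 0.967. The values within diets (0.151 to 0.549) thus overlapped those between diets (0.152 to 0.301).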

How the data were processed

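The authors deposited, for each of 16 libraries, counts of methylated and unmethylated reads per CpG cytosine, without normalization. Libraries were made with the Ovation RRBS kit per the labels' protocols, and the submitters' processing notes name Rnor_6.0. Neither the aligner's version nor the caller is stated in the labels. No annotation of that build was used, so no gene is named and no sequence shown.

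The percentage of methylated reads was computed per cytosine and strand, and the range rounded so that an exact 50 counted. The sites, bands and tests were chosen with earlier results of these data known. Diet was tested over 292404 sites by a logistic model of the counts, two-sided F test with each site's Pearson dispersion (never below 1) and Benjamini-Hochberg adjustment at 0.05. Alternatives were a dispersion moderated by limma 3.58.1 (squeezeVar) and limma on log2((methylated + 1)/(unmethylated + 1)), with other read minimums, ranges, distances and left-out libraries. The diet test was tried on simulated counts first. The software was R 4.3.3 and Python 3.11.15 with pandas 2.3.3, scipy 1.17.1 and numpy 2.4.6.

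Sites named are the 5 CpGs with the largest mean range over both strands; the 3 sites of largest range whose partner ranged under 20 points; the 2 groups with most CpGs; the 2 sites with the smallest diet p in each direction; the 3 best covered sites with 2 or more libraries in each band; and 2 sites on either side of the threshold. Reads carry no molecular identifiers in these tables, so copies of a molecule may be counted more than once. P90 libraries other than control replicates 1 and 2 were left out of level comparisons.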

Additional observations from a re-analysis of the deposited data

Results flagged for a closer look

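Within each diet the 4 libraries of the named sites, and of library summaries, were searched for a library far from the other 3 (Dixon's ratio above its 95% critical value). Of 126 such groups of 4, 20 at sites and 2 of library summaries were found. Chance marks about 1 group in 20, and the sites were chosen for a wide range. Of the 20, 11 are plus-strand sites of the stretch on chromosome 3, which share their reads, and count as 1 observation: control replicate 3 read 91.1%, 90.9%, 86.4%, 90.9%, 86.4%, 90.7%, 88.4%, 88.4%, 90.7%, 86.0% and 85.7% there, where the other controls read 28.1% to 37.7%.

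At single CpGs the library far from the others was control replicate 4 at chromosome 17, position 8693834 (54.3%, others 95.8% to 100%) and high-fat replicate 2 at chromosome 6, position 132198303 (1.52%, others 54.2% to 58.3%). At chromosome 1, control replicate 3 stood apart on both strands, at position 192463676 with 7.14% and at position 192463677 with 3.33%. High-fat replicate 1 stood apart at the latter with 41.9% (others 93.0% to 95.5%). Further cases were high-fat replicate 1 at chromosome 7, position 136893818 (91.2%, others 2.86% to 15.4%), high-fat replicate 2 at chromosome 12, position 9086601 (37.2%, others 87.9% to 96.0%), high-fat replicate 4 at chromosome 5, position 244477 (13.5%, others all 20%) and control replicate 4 at chromosome 12, position 40095547 (19.6%, others 40.7% to 44.2%).

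Over all 992 sites, control replicate 2 had a mean of 55.0% (other controls 60.8% to 61.5%), and high-fat replicate 3 had 90 values of 20% or less (other high-fat libraries 54 to 57). No cause was tested for any of these.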

How the results depend on the processing

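The number of variable sites follows the settings. It was 6066 at a minimum of 10 reads, 205 at 30 reads, 4119 for a range of 40 points, 354 for 60 points, 1822 with 20 reads in at least 7 libraries and 2364 with both strands summed. With all reads thinned to 20 per library it was 6047, of which 904 were among the 992, and all 108 sites with a range of 80 or more still had 50 or more. Without 1 library it was 885 to 1197. Sites without overlap between diets numbered 157 at 10 reads, 5 at 30 reads, 113 at 40 points and 10 at 60 points, and 58 to 76 without 1 library, where 3 values have to stand apart in place of 4. As shares these were 2.59%, 2.44%, 2.74%, 2.82% and 5.85% to 7.66%, against 2.59%, 2.89%, 2.74%, 2.74% and 5.28% to 5.68% of all sites under the same settings. Diet calls were 0 with each site's own dispersion under every read minimum, coverage limit, summed strands and left-out library, against 81 with the moderated dispersion and 4 by limma. In the main setting the smallest p of the logistic F test with own dispersion was 8.23e-05, where a first call needed 1.71e-07. A test so short of a first call can hardly change with the settings, so nothing is read from these 0 calls. The share of values in the 3 bands fell from 85.5% to 50.1% with edges at 10, 40 to 60 and 90%. The share of sites with a neighbour slope of 0.5 or more was 26.1% within 50 bp, 18.4% within 200 bp, 19.0% with neighbours of 10 reads, 17.6% with neighbours of 30 reads, and 17.6% to 21.9% without 1 library. The share of sites 30 points apart between the P90 controls was 17.99% to 20.99% without 1 P7 library. Counted by site, the share of partners with a range of 50 or more stayed between 50.9% and 60.6% in all settings run. Settings that left out a library for the bands, partners, slopes, P90 gaps and overlap were added after the data were seen. At 20 reads a value of 50% has a 95% interval of 29.9% to 70.1%, so ranges near 50 are less certain than those of 80 or more. No paired analysis was possible because replicate numbers here follow the order of the samples and the labels give no number that pairs libraries across diets.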
